A study of Mus musculus with 12 samples.

Results

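The 10 genes described here encode proteins that mark vascular and endocardial endothelial cells, namely *Pecam1*, *Cdh5*, *Tie1*, *Emcn*, *Vwf*, *Eng*, *Esam*, *Egfl7*, *Sox17* and *Sox18*. They were chosen by gene name for what they are known to mark, 10 of the 54658 gene names in the count table, and were compared between the left atria (LA) of control and iNICD mice. iNICD mice carried *αMHC-rtTA*, in which the *αMHC* promoter places the reverse tetracycline transactivator in cardiomyocytes, together with *tetO_NICD*, which makes the Notch1 intracellular domain when doxycycline is given. Their control littermates carried *αMHC-rtTA* without *tetO_NICD*, and both groups, on a mixed background, ate doxycycline chow for 3 weeks, starting at 2 to 3 months of age, with no washout. Each of the 6 control libraries (4 females and 2 males) and 6 iNICD libraries (3 females and 3 males) was made from LA tissue without sorting of cells, so that endothelial RNA was measured within the RNA of the whole chamber. In such bulk tissue, fewer cells of a type and less RNA per cell cannot be told apart.

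Endothelial cells line blood vessels and, as endocardium, the inner surface of the heart chambers, and they are joined by junctions built from cadherins and immunoglobulin-like adhesion proteins. Notch receptors are released by ligand binding as an intracellular domain that joins the DNA-binding protein RBPJ and activates transcription, and in endothelium this pathway is known for its role in arterial identity and sprouting. In the iNICD model the transgene is driven by a cardiomyocyte promoter, and which cells of the chamber gave the reads of an endothelial gene was not measured.

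Between 21555678 and 26902478 reads per control library and between 21432632 and 27182038 per iNICD library were counted on genes. *Notch1*, from which the transgene is derived, was at 118 ± 9.99 normalized CPM (counts scaled by library size and the TMM factor of edgeR; SD, n = 6) in controls and at 3401 ± 441 in iNICD libraries, reads of the transgene and the endogenous gene being counted together. Control replicate 5 stood apart from the other controls in several of the 10 genes, and the log2 fold change without it is given for each of them. Its TMM factor was 0.863, against 1.00 to 1.03 in the other controls, which raised all its normalized CPM values. Over all tested genes, its counts differed from those of the other controls by a chi-square per gene of 97.7 to 198. Pairs of the other controls gave 16.7 to 82.8. All 10 genes passed the filter of more than 1 CPM in at least 6 libraries. The quasi-likelihood test of edgeR with Benjamini-Hochberg adjustment over the 13541 genes tested (threshold 0.05) was used for every adjusted p-value below, and log2 fold changes are iNICD minus control.

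The first question was whether the endothelial genes changed when Notch signaling was activated in cardiomyocytes. *Esam*, an adhesion molecule of endothelial tight junctions, rose 2.76-fold (95% interval 2.32 to 3.28), and none of the other 9 genes passed the test. Thus 1 of 10 endothelial genes was called higher and 0 lower by edgeR's quasi-likelihood test. Of all tested genes 2.78% were called higher and 1.34% lower, which is 4.12% in either direction. Without adjustment, 1 of the 10 genes was higher and 2 were lower at p under 0.05, as were 9.32% and 8.09% of all tested genes. In DESeq2 *Egfl7* was also called lower, as were 3.28% of all tested genes. The edgeR exact test called 1 gene higher and 0 lower, and 3.63% and 2.06% of all tested genes. The median log2 fold change of the 10 genes was -0.16, against -0.0061 for all genes tested.

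**Figure D1:**
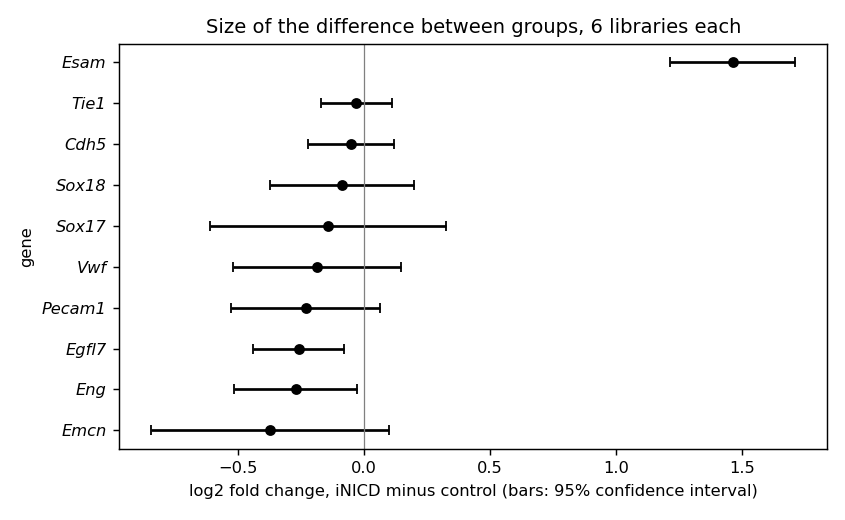
Log2 fold change (iNICD minus control, edgeR) of each of the 10 endothelial genes, with 95% confidence intervals as bars. *Esam* lies at 1.46, and the other 9 genes lie between -0.37 and -0.03.

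Among the adhesion and junction proteins, *Esam* (chromosome 9, 37528078 to 37538319, plus strand, GRCm38) was covered by 1142 to 1533 reads per control library and 2945 to 4973 per iNICD library. Its normalized level ran from 52.3 to 66.0 CPM in controls (median 56.6) and from 123 to 202 CPM in iNICD libraries (median 151). Every iNICD library was above every control library, the highest of which was control replicate 5. Groups failed to overlap for *Esam* alone of the 10 and for 3.83% of all genes tested, 2.58% with iNICD higher and 1.25% with iNICD lower. The log2 fold change of *Esam* was 1.46 (standard error 0.11, adjusted p = 5.83e-06 in edgeR), and by p-value the gene stood at position 27 of those tested. The change did not rest on a single library: removal of any one of the 12 libraries gave log2 fold changes between 1.38 and 1.53, with the adjusted p of edgeR between 7.68e-06 and 5.19e-05.

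*Pecam1* and *Cdh5* encode the other adhesion proteins of the set. *Pecam1* (chromosome 11, 106654217 to 106750628, minus strand), an immunoglobulin-like protein of the endothelial contact, ran from 217 to 402 CPM in controls (median 241) and from 207 to 264 CPM in iNICD libraries (median 229). Its log2 fold change was -0.23 (standard error 0.14, 95% interval -0.53 to 0.06, adjusted p = 0.412 in edgeR). The highest control, at 402 CPM, was control replicate 5, the other 5 controls lay between 217 and 289 CPM, and the change became -0.08 once it was removed. *Cdh5* (chromosome 8, 104101625 to 104144511, plus strand), the cadherin of endothelial adherens junctions, ran from 139 to 181 CPM in controls (median 163) and from 137 to 168 CPM in iNICD libraries (median 161). The groups overlapped almost completely, with a log2 fold change of -0.05 (95% interval -0.22 to 0.12, adjusted p = 0.776 in edgeR), and its sign turned in 3 of 25 alternative analyses. The highest control of *Cdh5* was control replicate 5, and the change was -0.01 with that library removed.

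*Tie1* and *Eng* encode receptors. *Tie1* (chromosome 4, 118471191 to 118490061, minus strand), a receptor tyrosine kinase of the angiopoietin system, ran from 86.0 to 103 CPM in controls (median 101) and from 86.5 to 109 CPM in iNICD libraries (median 97.3). Its log2 fold change was -0.03 (standard error 0.07, adjusted p = 0.855 in edgeR), with a 95% interval of the fold change from 0.888 to 1.08, the narrowest interval of the 10 genes. Here control replicate 5 was the lowest control, at 86.0 CPM against 100.2 to 103 CPM in the others, and the change was -0.07 with that library removed. *Eng* (chromosome 2, 32646595 to 32682669, plus strand), the co-receptor endoglin for BMP9 and TGF-β ligands, ran from 400 to 614 CPM in controls (median 474) and from 357 to 483 CPM in iNICD libraries (median 384). Of the 6 iNICD libraries, 4 lay below every control, but the log2 fold change of -0.27 (standard error 0.11, 95% interval -0.52 to -0.03) had an adjusted p of 0.230 in edgeR. The 614 CPM belonged to control replicate 5, the other controls of *Eng* lay between 400 and 534 CPM, and the change was -0.20 with that library removed.

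*Emcn*, *Vwf* and *Egfl7* encode surface and secreted proteins. *Emcn* (chromosome 3, 137341067 to 137432185, plus strand), a sialomucin of venous and capillary endothelium, ran from 62.0 to 171 CPM in controls (median 76.0) and from 58.7 to 78.1 CPM in iNICD libraries (median 74.7). The medians were close, and the log2 fold change of -0.37 (95% interval -0.84 to 0.10, adjusted p = 0.409 in edgeR) was -0.10 without control replicate 5, which held the 171 CPM. *Vwf* (chromosome 6, 125546774 to 125686679, plus strand), the multimeric clotting protein stored in Weibel-Palade bodies, ran from 230 to 356 CPM in controls (median 251) and from 166 to 301 CPM in iNICD libraries (median 245), with a log2 fold change of -0.19 (adjusted p = 0.568 in edgeR). Control replicate 5 again was the highest control, and *Vwf* was at -0.08 on the log2 scale without it.

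*Egfl7* (chromosome 2, 26580014 to 26593120, plus strand), a secreted matrix protein whose gene hosts the microRNA miR-126, had the lowest unadjusted p of the 9 genes that did not pass. Its level ran from 64.4 to 80.4 CPM in controls (median 76.6) and from 53.7 to 72.1 CPM in iNICD libraries (median 62.7). The groups overlapped, with 3 iNICD libraries below every control, and the log2 fold change was -0.26 (standard error 0.08, 95% interval -0.44 to -0.08, adjusted p = 0.116 in edgeR). DESeq2 put its adjusted p at 0.0489. Control replicate 5 was not at an end of the control range for *Egfl7*, and its removal left -0.26. The gene overlaps *Agpat2* on the opposite strand, which had a log2 fold change of -0.18 (adjusted p = 0.299 in edgeR), and *Eng* overlaps *Fpgs*, also on the opposite strand, with -0.27 (adjusted p = 0.353). Both counting routes that the study describes leave out reads assigned to more than 1 gene, and the strand setting of the table is not given in the sources used here.

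The transcription factors were the least abundant of the 10 genes. *Sox17* (chromosome 1, 4490931 to 4497354, minus strand), a SOX-F factor of arterial endothelium, ran from 3.78 to 9.01 CPM in controls (median 5.76) and from 3.75 to 7.05 CPM in iNICD libraries (median 4.94). *Sox18* (chromosome 2, 181669836 to 181671640, minus strand), a SOX-F factor of vascular and lymphatic development, ran from 12.4 to 19.2 CPM in controls (median 12.6) and from 10.9 to 15.4 CPM in iNICD libraries (median 12.1). Their log2 fold changes of -0.14 (95% interval -0.61 to 0.33, adjusted p = 0.776 in edgeR) and -0.09 (-0.37 to 0.20, adjusted p = 0.774) were both 0.03 without control replicate 5.

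**Figure D2:**
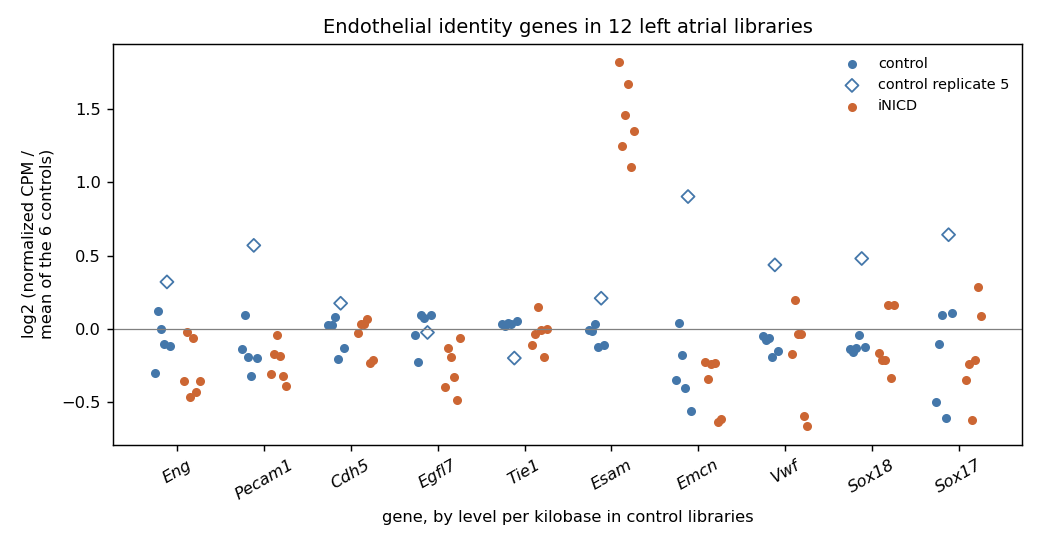
Log2 of normalized CPM relative to the mean of the 6 controls (vertical axis) for the 10 endothelial genes, ordered by control level per kilobase, with 1 point per library, blue for control, orange for iNICD and an open diamond for control replicate 5. The iNICD points lie apart from the controls for *Esam* alone, and control replicate 5 is the lowest control for *Tie1*, within the control range for *Egfl7* and the highest control for the other 8 genes.

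A negative log2 fold change was found for 9 of the 10 genes and for 51.3% of all genes tested. This count depended on scaling, sex and single libraries. It was 7 of 10 when the libraries were scaled to the other endothelial genes, 7 of 10 in females only (median of the 10 genes -0.04), 7 of 10 without control replicate 5 (median -0.07) and 8 of 10 without iNICD replicate 5. Scaling to other endothelial genes used only the lists of surface and junction proteins, receptors and transcription factors described below. The level of the 9 genes other than *Esam*, summed, lay between 1308 and 1912 CPM in controls (median 1384) and between 1110 and 1443 CPM in iNICD libraries (median 1273). The upper end of the control range was control replicate 5, and the other 5 controls lay between 1308 and 1513 CPM. *Esam* made up 3.33% to 4.10% of the counts of the 10 genes in controls and 8.61% to 14.01% in iNICD mice. The exact (Clopper-Pearson) 95% binomial intervals of these shares, which cover counting error only, reached at most 4.32% in a control and at least 8.32% in an iNICD library.

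Per length, which allows levels to be compared between genes, *Eng* was the most abundant of the 10 in controls, at 121 ± 18.5 RPKM (normalized CPM per kilobase, with the gene lengths of the table; SD, n = 6). It was followed by *Pecam1* at 43.5 ± 11.02 RPKM and *Cdh5* at 38.2 ± 3.68 RPKM, whose control ranges overlapped. A group of 5 genes came next, *Egfl7* (20.997 ± 1.74 RPKM), *Tie1* (20.1 ± 1.28 RPKM), *Esam* (19.9 ± 1.72 RPKM), *Emcn* (16.9 ± 7.47 RPKM) and *Vwf* (16.4 ± 2.90 RPKM), in which each neighbor overlapped the next. Without control replicate 5, *Tie1* no longer overlapped *Esam*, nor *Esam* *Emcn*. *Sox18* (8.52 ± 1.66 RPKM) and *Sox17* (1.21 ± 0.396 RPKM) had the lowest means. *Sox18* reached 11.9 RPKM in controls and so overlapped *Emcn*, whose lowest control was at 11.5 RPKM, but not *Vwf*. *Sox17* lay below all the others without overlap. In iNICD libraries *Esam* was at 54.9 ± 10.3 RPKM and moved from position 6 to position 2 of the 10, behind *Eng* at 101 ± 13.7 RPKM.

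Spread between control libraries differed among the genes, with a coefficient of variation from 6.39% for *Tie1* to 44.3% for *Emcn*. Without control replicate 5 it was 0.900% for *Tie1* and 16.3% for *Emcn*, and *Sox17* had the highest value, 22.3%. That library exceeded the mean of the other controls 2.26-fold for *Emcn*, 1.76-fold for *Sox17*, 1.64-fold for *Pecam1*, 1.51-fold for *Sox18*, 1.46-fold for *Vwf* and 1.31-fold for *Eng*, and 1.19-fold for *Esam*, whereas its *Tie1* level was 0.849 and its *Egfl7* level 0.979 of theirs. The selectins of activated endothelium stood further apart: *Selp* (P-selectin) had 572 counts in control replicate 5, or 26.7 CPM, against 0.323 to 0.957 CPM in the other controls and 0.450 to 1.32 CPM in iNICD libraries. *Sele* (E-selectin) had 266 counts there, or 12.4 CPM, against 0.413 to 1.73 CPM and 0.292 to 0.801 CPM. Neither selectin passed the filter on low counts, and no test was made. The part of control replicate 5 in the members' results is given by the values without it: *Esam* rose by 1.51 on the log2 scale (adjusted p = 8.37e-06 in edgeR), and again no other gene of the 10 passed.

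The 10 genes differed in how far they varied together between libraries. With group means removed, the residual of each gene was correlated with the mean residual of the other 9 over 12 libraries that share depth scaling, as a description without a test. Pearson's r was 0.88 for *Emcn*, 0.84 for *Pecam1*, 0.74 for *Eng*, 0.74 for *Cdh5*, 0.67 for *Vwf* and 0.66 for *Sox18*. It was 0.47 for *Esam*, 0.26 for *Sox17*, -0.083 for *Egfl7* and -0.44 for *Tie1*. Without control replicate 5 (11 libraries) the values were 0.60 for *Emcn*, 0.46 for *Pecam1*, 0.61 for *Eng*, 0.78 for *Cdh5*, 0.48 for *Vwf*, 0.12 for *Sox18*, 0.35 for *Esam*, -0.43 for *Sox17*, -0.078 for *Egfl7* and 0.34 for *Tie1*. The genes outside the set whose residuals were most like the mean of the 10 over 12 libraries were *Naa20* (r = 0.96), *Slc30a4* (0.95), *Ltn1* (0.95), *Ovca2* (0.94), *Lnpep* (0.94), *Qtrt2* (0.94), *Hnrnpa1* (0.93), *Gnl2* (0.93), *Atad1* (0.93) and *Filip1* (0.93). None of these is in the lists of other endothelial genes used here. Without control replicate 5, *Ablim1* (r = 0.96) led, and 0 of the 10 most alike genes were shared with the first ranking.

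The sexes were compared by an interaction term, since 4 of 6 controls and 3 of 6 iNICD mice were female. For 0 of the 10 genes did the effect differ between the sexes in edgeR, with 0 in DESeq2 and 1 at an unadjusted p under 0.05, *Vwf*, and 0% of all tested genes passed. The log2 fold change of *Esam* was 1.56 in females and 1.34 in males (adjusted p of the interaction 0.916 in edgeR). That of *Vwf* was 0.10 in females and -0.58 in males (adjusted p of the interaction 0.916 in edgeR), and that of *Emcn* was -0.05 and -0.83. With males alone, 2 controls against 3 iNICD libraries, the log2 fold change of *Esam* was 1.32 and did not pass (adjusted p = 0.322 in edgeR), and 8 of all tested genes were called. Control replicate 5 was among the male controls.

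Promoter windows of RefSeq on GRCm38.p6, from 250 bases before to 50 after a gene start, were given for 4 of the 10 genes in 6 windows (*Egfl7*, *Emcn*, *Eng* and *Tie1*). They were searched on both strands for TGGGAA, the core bound by RBPJ, which overlaps the ETS core GGAA. Of 32851 windows in the mouse table, 25.6% held TGGGAA and 96% held GGAA, and 31% held ACAAT, the core bound by SOX factors. Of the 6 windows 2 held TGGGAA, 1 of *Egfl7* and that of *Tie1*, neither of which passed the test in iNICD mice. They are printed because RBPJ is the DNA-binding partner of the induced Notch1 domain, with the match on either strand in capitals. The *Egfl7* window is chr2:26580833-26581132 on the plus strand, with the match starting at position -162. The *Tie1* window is chr4:118489800-118490099 on the minus strand, with the match at -16. Both positions are counted from the start used for the window, which lies inside the gene span given above and is not its first base.
Egfl7: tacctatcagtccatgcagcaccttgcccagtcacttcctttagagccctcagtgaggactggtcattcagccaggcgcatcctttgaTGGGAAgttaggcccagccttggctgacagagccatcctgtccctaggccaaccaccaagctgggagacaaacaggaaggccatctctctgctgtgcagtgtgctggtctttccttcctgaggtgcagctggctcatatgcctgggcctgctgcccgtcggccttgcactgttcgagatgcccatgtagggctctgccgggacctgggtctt
Tie1: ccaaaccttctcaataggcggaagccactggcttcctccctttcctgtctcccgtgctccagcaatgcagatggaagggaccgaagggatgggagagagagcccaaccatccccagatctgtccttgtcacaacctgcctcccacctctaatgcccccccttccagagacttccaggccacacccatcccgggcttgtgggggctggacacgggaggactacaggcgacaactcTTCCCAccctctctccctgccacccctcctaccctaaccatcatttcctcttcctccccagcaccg
A match is a description of these letters and not a bound site. ACAAT was found in the window of *Emcn* alone.

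Since *Esam* was the only gene of the set to rise, its neighborhood on chromosome 9 was examined, a choice made after its values were seen. The next 3 genes along the chromosome were also higher in iNICD libraries, so that 4 consecutive tested genes, *Esam*, *Vsig2*, *Nrgn* and *Siae*, rose between 37528078 and 37649655 (GRCm38, 121.6 kb). *Vsig2*, an immunoglobulin-like membrane protein 0.936 kb beyond *Esam* on the same strand, was at 9.08 ± 1.78 CPM in controls and 16.3 ± 2.05 CPM in iNICD libraries (SD, n = 6), with a log2 fold change of 0.84 (standard error 0.13, adjusted p = 0.00244 in edgeR). *Siae*, a sialic acid esterase gene 17.4 kb beyond, rose from 27.9 ± 7.65 to 136 ± 33.3 CPM (log2 fold change 2.28, standard error 0.22, adjusted p = 4.68e-05). For both genes all 6 iNICD libraries were above every control. The lowest control of *Siae*, at 14.5 CPM, was control replicate 5, and the others lay between 24.4 and 35.7 CPM.

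*Nrgn*, the calmodulin-binding protein neurogranin, lies 6.17 kb beyond on the opposite strand. It was at 1.45 to 5.63 CPM in controls and 5.12 to 40.2 CPM in iNICD libraries, with 5 of 6 above every control (log2 fold change 2.44, standard error 0.54, adjusted p = 0.0233 in edgeR). Its call was lost without control replicate 1, 2, 3 or 4, with an adjusted p of up to 0.0576. Over all 25 alternative analyses the call was lost in 7, and the log2 fold change ran from 1.17 to 3.26. The 40.2 CPM belonged to iNICD replicate 1, and without it *Nrgn* was at 1.75 on the log2 scale (adjusted p = 0.0320 in edgeR). Without control replicate 6, which held the 5.63 CPM, it was at 2.84 (adjusted p = 0.0136). On the other side, *Msantd2*, 3.45 kb before *Esam*, differed by -0.28 on the log2 scale (adjusted p = 0.0836 in edgeR). *Robo4*, an endothelial guidance receptor 113 kb before *Esam*, had one of -0.09 (adjusted p = 0.659). *Tbrg1*, which overlaps the far end of *Siae* on the opposite strand, was at -0.37 (adjusted p = 0.220), and *Spa17*, within *Siae* on the opposite strand, at -0.49 (adjusted p = 0.285). Within 500 kb of *Esam* there were 11 other tested genes, of which 3 were called, all higher, where 4.12% of all tested genes were called and 2.78% were called higher. Among 13510 placed genes there were 4 runs of at least 4 consecutive tested genes that were all called higher by edgeR, this run included. *Esam* and *Vsig2* share a strand, and reads running past the end of *Esam* were not measured.

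**Figure D3:**
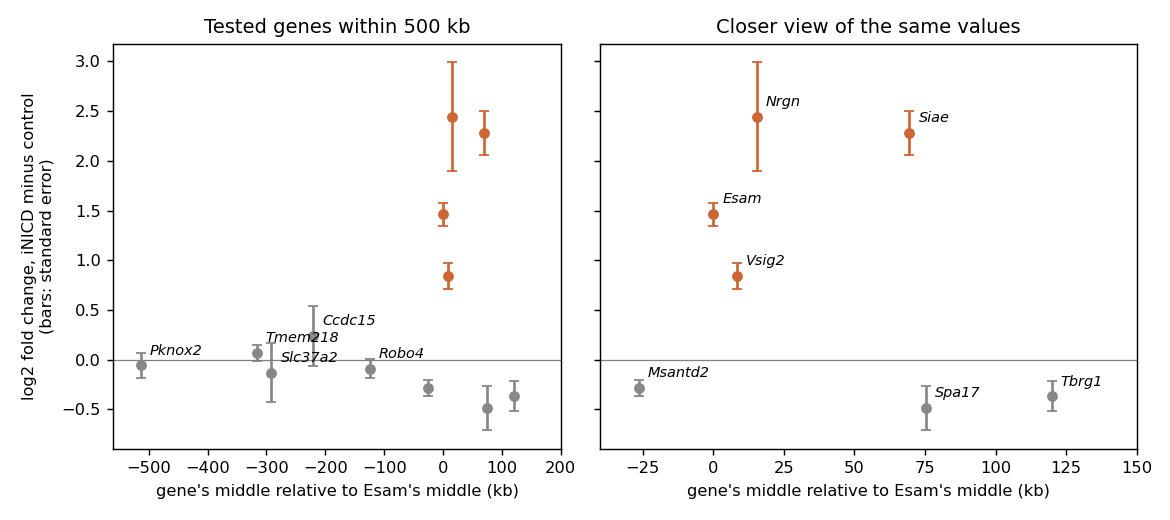
Log2 fold change (iNICD minus control, bars for standard errors) of the tested genes within 500 kb of *Esam*, against the distance in kb between gene middles, with a closer view on the right and genes called by edgeR in orange. *Esam*, *Vsig2*, *Nrgn* and *Siae* lie at 0.84 to 2.44, while *Msantd2*, *Spa17* and *Tbrg1* lie below 0.

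Other endothelial genes were described next to the 10, in lists of surface and junction proteins, receptors, transcription factors and vessel types. Of 75 such genes 70 were tested, 1 rose and 1 fell, against the same shares of 2.78% and 1.34% of all tested genes, with a median log2 fold change of -0.09. Without adjustment 5 were higher and 5 lower at p under 0.05, of the 70 tested, where 17.4% of all genes were past this value in either direction. Of the 70 log2 fold changes 45 were negative, where 51.3% of all were. The summed level of these genes was 4617 to 4999 CPM in 5 controls, 5323 CPM in control replicate 5 and 4469 to 4669 CPM in iNICD libraries, so that the groups overlapped. *Tspan7*, a tetraspanin counted with the receptors, ran from 131 to 157 CPM in controls (median 152) and from 159 to 195 CPM in iNICD libraries (median 177), and rose by 0.27 on the log2 scale (standard error 0.07, adjusted p = 0.0395 in edgeR). All 6 iNICD libraries lay above every control, yet the call held in 2 of the 12 analyses with 1 library left out, those without control replicate 5 and without iNICD replicate 2. The adjusted p was up to 0.0947.

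*Tmem100*, a transmembrane protein that depends on BMP9 and ALK1 in endothelium, ran from 23.2 to 97.5 CPM in controls (median 41.7) and from 13.7 to 31.2 CPM in iNICD libraries (median 18.0). Its log2 fold change was -1.30 (standard error 0.30, adjusted p = 0.0301 in edgeR), with 5 of 6 iNICD libraries below every control. The highest control was control replicate 5, and *Tmem100* was at -0.97 on the log2 scale without it (adjusted p = 0.0190). The call was lost without control replicate 3 or 4 and without iNICD replicate 1, 2, 3, 5 or 6, with an adjusted p of up to 0.0739. *Eng*, a co-receptor of ALK1, did not pass, and *Acvrl1*, which encodes ALK1, had an adjusted p of 0.533.

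By list, 0 of 16 surface and junction genes passed in edgeR (1 at an unadjusted p under 0.05, 0 in DESeq2), with a median log2 fold change of -0.11. Their summed level was 1316 to 1500.4 CPM in 5 controls, 1570 CPM in control replicate 5 and 1258 to 1413 CPM in iNICD libraries. Of 12 receptor genes 1 rose, *Tspan7* (3 higher and 0 lower unadjusted, 1 higher in DESeq2, median -0.04), where 9.32% of all tested genes were higher unadjusted. The summed level was 835 to 957 CPM in 5 controls, 1006 CPM in control replicate 5 and 894 to 1014 CPM in iNICD libraries. For *Kdr*, the main VEGF receptor of endothelium, the log2 fold change was -0.05 (standard error 0.09, adjusted p = 0.795 in edgeR). Of 12 transcription factor genes 0 passed (1 unadjusted, 0 in DESeq2, median -0.05). For *Klf2*, a factor induced by blood flow, the log2 fold change was -0.53 (standard error 0.28, adjusted p = 0.352 in edgeR), with overlapping groups.

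The vessel-type lists gave 0 of 8 capillary genes (1 unadjusted, 0 in DESeq2, median -0.20), 0 of 8 arterial genes (0 unadjusted, 0 in DESeq2, median -0.08) and 0 of 4 venous genes (0 unadjusted, 0 in DESeq2, median -0.07) in edgeR. Of 7 lymphatic genes 0 passed in edgeR, with 2 at an unadjusted p under 0.05, 1 in DESeq2 and a median of 0.10. Of 6 endocardial genes *Tmem100* alone fell (2 lower and 0 higher unadjusted, 1 lower in DESeq2), with a median of -0.26. Of all tested genes 8.09% were lower unadjusted. The arterial list holds *Dll4*, a Notch ligand, and *Efnb2*, an arterial ephrin, with log2 fold changes of -0.03 and -0.13 and adjusted p-values of 0.922 and 0.549.

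**Figure D4:**
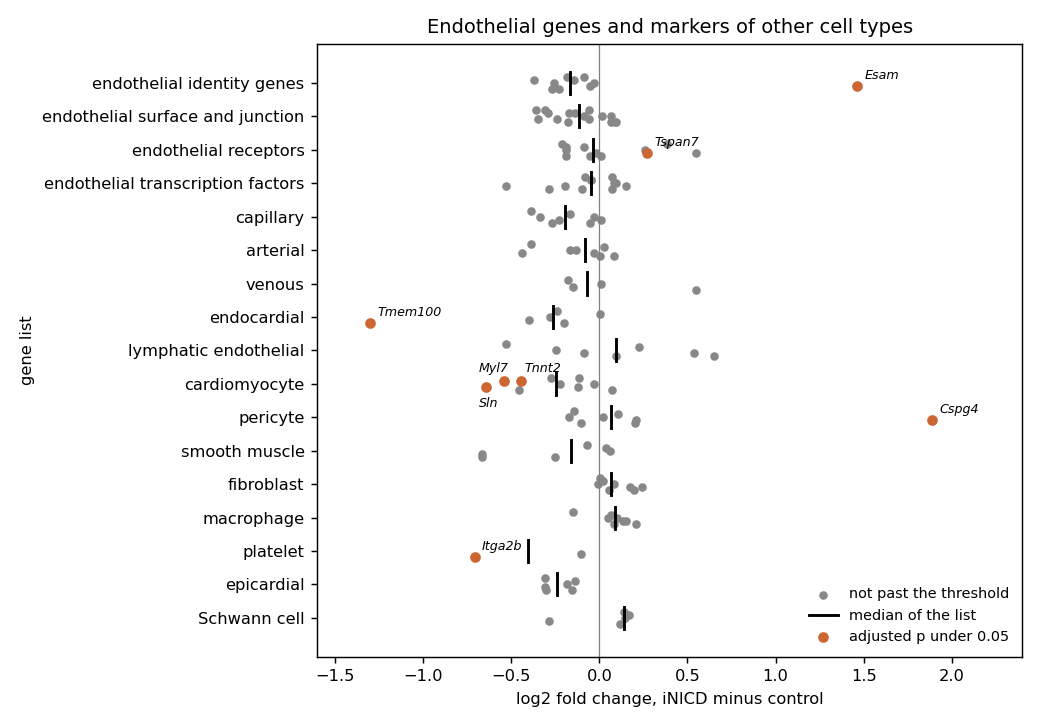
Log2 fold change (iNICD minus control) of the tested genes of each gene list, 1 line per list, with gray points for genes, a bar for the list median and genes called by edgeR in orange. Called genes are *Esam* (1.46), *Tspan7* (0.27) and *Tmem100* (-1.30) among the endothelial lists and *Cspg4* (1.89), *Sln* (-0.64), *Myl7* (-0.54), *Tnnt2* (-0.44) and *Itga2b* (-0.71) among the others.

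Markers of other cell types were read from the same libraries, since the tissue was not sorted. Of 58 such genes 53 were tested, 1 rose and 4 fell, where 2.78% of all tested genes were called higher and 1.34% lower. The one that rose was *Cspg4*, the NG2 proteoglycan used as a pericyte marker, which ran from 37.8 to 68.5 CPM in controls (median 39.1) and from 136 to 224 CPM in iNICD libraries (median 164). Its log2 fold change was 1.89 (standard error 0.17, adjusted p = 2.87e-05 in edgeR), and the groups did not overlap. The highest control was control replicate 5, and the others lay between 37.8 and 55.8 CPM. The other 7 pericyte genes did not pass, *Rgs5*, the most abundant, being at 248 ± 34.5 CPM in controls and 287 ± 28.1 CPM in iNICD libraries. The summed level of the 8 pericyte genes was 442 to 592 CPM in controls and 618 to 785 CPM in iNICD libraries. Without *Cspg4* the sum of the other 7 was 404 to 550 CPM in controls and 467 to 592 CPM in iNICD libraries, so that the groups overlapped, and 3 of the 7 had a negative log2 fold change. The part of pericyte RNA in the *Esam* result was not tested.

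Of 10 cardiomyocyte genes 3 fell, *Sln* (sarcolipin, log2 fold change -0.64, adjusted p = 0.00803 in edgeR), *Myl7* (atrial myosin light chain, -0.54, adjusted p = 0.0367) and *Tnnt2* (cardiac troponin T, -0.44, adjusted p = 0.0153). The summed level of the 10 was 68545 to 74838 CPM in 5 controls, 84661 CPM in control replicate 5 and 59195 to 69897 CPM in iNICD libraries, and *Myh6*, the most abundant, had a log2 fold change of -0.03 (adjusted p = 0.871). In the platelet list, *Itga2b* had a log2 fold change of -0.71 (adjusted p = 0.0286), from 4.83 to 2.95 CPM, 4 of the 6 genes were too low to be tested, and *Pf4*, the most abundant, was at 12.1 ± 3.68 and 11.3 ± 1.96 CPM. *Vwf*, which platelets also carry, did not pass. With 1 library left out, the call of *Myl7* held only without control replicate 2 or 5 or iNICD replicate 5 or 6 (adjusted p up to 0.0846 otherwise), and that of *Itga2b* only without control replicate 3 or 5 or iNICD replicate 5 (up to 0.0721 otherwise). Over all 25 alternative analyses the call was lost in 10 for *Myl7*, 14 for *Itga2b*, 2 for *Tnnt2* and 1 for *Sln*.

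No gene passed in edgeR among 6 smooth muscle, 8 fibroblast, 8 macrophage and 6 epicardial genes (0 at an unadjusted p under 0.05 and 0 in DESeq2 in each), nor among 5 Schwann cell genes (1 unadjusted, 1 in DESeq2). Their most abundant members by control mean were *Cnn1*, *Gsn*, *Csf1r*, *Upk3b* and *Mbp*, with log2 fold changes of -0.66 (adjusted p = 0.755), 0.0065 (0.985), 0.14 (0.614), -0.31 (0.291) and -0.28 (0.0664). *Cnn1* ran from 4.13 to 235 CPM in controls (median 17.8) and from 13.8 to 132 CPM in iNICD libraries (median 21.7), so that its medians and its fold change ran in opposite directions. The summed smooth muscle level was 432 CPM in control replicate 5, against 93.1 to 278 CPM in the other controls and 97.2 to 274 CPM in iNICD libraries.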

How the data were processed

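RNA was measured in 12 LA libraries. After ribosomal RNA depletion, libraries were stranded and read single-end for 50 bases. The authors deposited unnormalized counts of reads per gene name and, as a unit of its own, a gene length in bases. Per the labels, cutadapt, STAR 2.4.2a, featureCounts and mm10 were used; the Supplemental Methods describe 2 routes, and the table names neither. Lengths served only for RPKM.

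Groups, sex and replicate numbers came from titles and descriptions. Genes over 1 CPM in at least 6 libraries were normalized by TMM and compared by the two-sided quasi-likelihood test of edgeR 4.0.16 (R 4.3.3), with Benjamini-Hochberg adjustment; DESeq2 1.42.0 was an alternative. Standard errors were derived from the F statistic. Positions are from GENCODE M21 on GRCm38. Scripts were tested on simulated data. No 2 of the 12 libraries were copies (lowest chi-square per gene 16.7 over 66 pairs). Residual correlations used genes of at least 5 CPM on the log2 CPM scale (prior count 2).

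The 10 genes and all lists were chosen with earlier results of these data known. Named genes were the 10, *Notch1*, list genes past the threshold, the 10 most alike genes and the most abundant marker of each cell type; *Kdr*, *Klf2*, *Acvrl1*, *Dll4*, *Efnb2*, the selectins and the genes near *Esam* were added after their values were seen. Alternatives were other tests, scalings, filters, sex, replicate numbers as a block, each sex alone and each library left out. RA libraries and human nuclei were not analysed here.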

Additional observations from a re-analysis of the deposited data

Results flagged for a closer look

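Values are listed here where the highest or lowest of the 6 libraries of a group lay far from the nearest other one by Dixon's ratio. Of 92 groups examined, 2 for each of 46 genes whose levels or fold changes are given, 14 had such a library. Independent groups would give about 1 in 20 by chance, or 4.6, but this number cannot be set against the 14. The groups share the same 12 libraries, and *Selp*, *Sele*, *Kdr*, *Klf2*, *Acvrl1* and *Nrgn* were added after their values were seen. In 8 of these it was control replicate 5, which was at 86.0 CPM for *Tie1* (other controls 100.2 to 103), at 171 CPM for *Emcn* (62.0 to 93.9), at 356 CPM for *Vwf* (230 to 254), at 19.2 CPM for *Sox18* (12.4 to 13.4), at 97.5 CPM for *Tmem100* (23.2 to 47.3), at 26.7 CPM for *Selp* (0.323 to 0.957), at 12.4 CPM for *Sele* (0.413 to 1.73) and at 65.7 CPM for *Acvrl1* (33.7 to 45.2). Control replicate 2 was at 168 CPM for *Kdr* (119 to 136) and control replicate 4 at 72.6 CPM for *Klf2* (31.5 to 44.6). iNICD replicate 4 was at 31.2 CPM for *Tmem100* (13.7 to 19.6 in the other iNICD libraries), and iNICD replicate 5 was at 132 CPM for *Cnn1* (13.8 to 58.0). *Nrgn* was at 5.63 CPM in control replicate 6 (1.45 to 2.56 in the other controls) and at 40.2 CPM in iNICD replicate 1 (5.12 to 13.3). *Esam* had no such library in either group.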

How the results depend on the processing

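*Esam* kept its direction in all 25 alternatives (log2 fold change 1.32 to 1.56) and passed in all but males only (1.32, adjusted p = 0.322 in edgeR), where 0 of the 10 genes were higher. The cause was not tested. With DESeq2, 1 of the 10 was lower, *Egfl7*. Signs turned for *Cdh5* (0.00026 with scaling to other endothelial genes, 0.0291 in females only, and 0.0245 with sex as a covariate and control replicate 5 left out, an analysis added after seeing the data), *Tie1* (0.0159 with scaling to other endothelial genes) and *Vwf* (0.10 in females only). With 1 library left out, log2 fold changes ran from -0.0675 to 0.00084 for *Tie1*, from -0.25 to 0.0266 for *Sox17* and from -0.14 to 0.0297 for *Sox18*.

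Other endothelial genes higher numbered 2 with DESeq2, the exact test and scaling to endothelial genes. In that scaling part of the genes counted were themselves the reference, so its count is no independent check. Those higher numbered 0 with upper-quartile scaling, without the filter, in males only and with sex and control replicate 5 out, and 0 to 3 with 1 library left out. Those lower numbered 0 in males only and 0 to 1 with 1 library left out. Other cell type markers higher numbered 0 in males only; those lower numbered 2 in females only, 0 in males only and 2 to 5 with 1 library left out. Without control replicate 5, 0 of the most alike genes were shared.

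Replicate numbers were not taken to pair the libraries, since 2 of 6 same-number correlations were not over 0.1. These correlations averaged 0.12 (titles) or 0.14 (descriptions), against -0.03 for the 30 pairs with different numbers under either numbering, a hint of pairing from the data and not from the design, and 3 of 6 libraries (2 with the numbers in the descriptions, which exchange 2 controls) correlated best with their own number. With the replicate block, 1 of the 10 genes was higher and 0 lower under either numbering, and genes called in all numbered 332 higher and 136 lower (titles) or 285 and 136 (descriptions). Under the block with description numbers 0 other endothelial genes were higher. Calls over all genes ranged from 8 higher in males only to 615 with DESeq2, and without control replicate 5 were 495 higher and 304 lower.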

Other observations

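Proteins related to ESAM were read as a further group, chosen after the values of *Esam* were seen. The junctional adhesion molecules and their relatives join cells of endothelium, epithelium and myocardium through immunoglobulin domains. Of 7 genes 6 were tested and 0 were called by edgeR, with 1 at an unadjusted p under 0.05 and 0 in DESeq2. Of all tested genes 4.12% were called by edgeR and 17.4% were at an unadjusted p under 0.05. The log2 fold changes of the 6 ran from -0.30 to 0.19. *F11r* (JAM-A) was at 100.3 ± 19.0 CPM in controls and 81.4 ± 3.70 CPM in iNICD libraries (SD, n = 6, log2 fold change -0.30, adjusted p = 0.175 in edgeR). *Jam2* (JAM-B) had a log2 fold change of -0.17 (adjusted p = 0.386), *Jam3* (JAM-C) of 0.19 (adjusted p = 0.491), and *Cxadr*, the coxsackievirus and adenovirus receptor of cardiomyocyte junctions, of 0.04 (adjusted p = 0.860).

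Within the 6 iNICD libraries the level of *Esam* was set beside that of *Notch1*, as 1 of 2 relations computed. Pearson's r was 0.29 (exact permutation p = 0.572, Benjamini-Hochberg 0.628) and Spearman's rho 0.43 (exact permutation p = 0.419, Benjamini-Hochberg 0.658). Without the 2 libraries farthest from the median of *Notch1*, r was 0.83 over 4 libraries. With the summed level of the other 9 genes, r was 0.24 (exact permutation p = 0.628, Benjamini-Hochberg 0.628) and rho 0.26 (exact permutation p = 0.658, Benjamini-Hochberg 0.658), and r was 0.37 without the 2 farthest libraries. Neither relation passed.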
